A study of Mus musculus with 2 samples.

Results

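The genes described here are the cathepsins Ctsb, Ctsl, Ctss, Ctsh, Ctsz, Ctsc, Ctsw and Ctsd and the cystatins Cst3 and Cst6, 10 of the 17775 genes in a single-cell expression matrix of mouse tumours. They were chosen by name, as proteases of the lysosome and their secreted inhibitors, and all 10 were found in the matrix. The tumours grew from MC38 cells, a mouse colon carcinoma line, implanted in the back of C57BL/6 mice. From day 7 the mice were gavaged for 14 days with water or with DFMO, a drug that blocks ornithine decarboxylase and with it the first step of polyamine synthesis. The sources differ on whether gavage was given daily or more than once a day. Cells of 4 mice were pooled in each group, enriched for immune cells on Ficoll, and made into 1 library per group with the Chromium chemistry that reads the start of the transcript. No genotype other than the strain is given, and the mice's age is not given in the sources used here. With 1 pooled library per group there is no replicate and no test, so every difference below is a difference between 2 libraries. Intervals are 95% intervals, exact Poisson for a level, exact conditional binomial for a ratio and exact (Clopper-Pearson) for a share, and they cover counting error only. A level is given in CPM, a gene's count of unique molecular identifiers (UMIs) scaled to a fixed total of the UMIs of all genes in the class of cells, so it is a share and not an amount per cell. The study asked, by its title, how DFMO alters the urea cycle; the comparison of DFMO with water is described here for the cathepsins and cystatins.

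Most cathepsins are cysteine proteases that are made as inactive precursors, carried to the lysosome on mannose 6-phosphate receptors and activated there at acid pH. Ctsd is the exception among the genes here, an aspartic protease. Cystatins bind the active site of cysteine cathepsins tightly and reversibly, and secreted ones such as Cst3 and Cst6 act mainly on proteases that have left the cell. In tumours, macrophages and cancer cells are known sources of secreted cathepsins, which can cut matrix proteins, and in antigen-presenting cells cathepsins trim the class II invariant chain.

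After filtering, 4421 DFMO cells (median 2208 UMIs) and 6150 water cells (median 6334.5 UMIs) were kept, from libraries of 23588037 and 59748244 UMIs. The 2 libraries differed in their mix of cells: lymphoid cells were 77.0% of kept cells in DFMO and 25.6% in water, myeloid cells 6.22% and 24.8%, tumour-like cells 13.3% and 34.0%, and mesenchymal-like cells 2.26% and 13.2%. The labels call the samples immune cells, yet the tumour-like and mesenchymal-like clusters had little Ptprc, which encodes the leukocyte protein CD45. Tumour-like clusters were named from the absence of leukocyte, mesenchymal and endothelial markers: the 6 epithelial genes Krt8, Krt18, Krt19, Epcam, Cdh1 and Cldn7 summed to only 0.392 CPM (DFMO) and 22.3 CPM (water) in them. The mesenchymal-like cluster was led by Mfap4, Postn and Col1a1, but its 4 Y-linked genes summed to 1.27 CPM (DFMO) and 1.39 CPM (water), close to the 1.47 and 0.746 CPM of tumour-like cells and far from the 116 and 84.2 CPM of myeloid cells. The 2 libraries shared 37 cell barcodes, and leaving these cells out moved none of the 103 ratios beyond its interval.

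On the mm10 build (GENCODE M21), Ctsb lies on chromosome 14 from 63122462 to 63145923 on the plus strand, and Ctsl on chromosome 13 from 64359337 to 64370890 on the minus strand. Ctss lies on chromosome 3 from 95526786 to 95556403 (plus), Ctsh on chromosome 9 from 90054152 to 90076089 (plus) and Ctsz on chromosome 2 from 174427493 to 174439039 (minus). Ctsc lies on chromosome 7 from 88278085 to 88310888 (plus), and Ctsd on the same chromosome from 142375911 to 142388038 (minus). Ctsw and Cst6 lie near each other on chromosome 19, from 5465043 to 5468507 and from 5344705 to 5349574, both on the minus strand. Cst3 lies on chromosome 2 from 148871722 to 148875692 (minus). Of the distinct runs of 31 bases in the Ctsd transcripts, 33.2% also occur in transcripts of another annotated gene, and 7.68% of those in Ctsl; the other 8 genes had 1.36% or less. On the same strand Ctsd overlaps Gm49369, Ctsl overlaps Gm49230 and Ctss overlaps Hmgb1-ps5, so how the counting split reads between these pairs is uncertain. On the other strand Ctsb overlaps Fdft1, Ctsz Nelfcd, Ctsw Fibp, Ctsl Gm47123 and Ctsc Gm26522, and whether the counting used strand is not given in the sources used here.

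RefSeq promoters (GRCm38.p6) were matched for 6 of the 10 genes, Ctsl, Ctss, Ctsz, Ctsc, Ctsd and Cst3. The 250 bases before the start are shown for 3 of them: Ctss and Ctsc, because their levels across classes were the most alike of any pair of the 10 genes (below), and Ctsz, which was present in every class, as a contrast. Windows of the other 3 overlap annotated exons and are not printed. Capitals mark matches, on either strand, to any of the 6 motifs searched. These were the E-box CACGTG, the CCAAT box, the GC box GGGCGG, the PU.1-type motif GAGGAAG, and GAAA followed after 2 bases by another GAAA, or GGAA followed after 2 bases by GAAA, the cores of elements that interferon regulatory factors can bind.
Ctss, chr3:95526536-95526785, plus strand: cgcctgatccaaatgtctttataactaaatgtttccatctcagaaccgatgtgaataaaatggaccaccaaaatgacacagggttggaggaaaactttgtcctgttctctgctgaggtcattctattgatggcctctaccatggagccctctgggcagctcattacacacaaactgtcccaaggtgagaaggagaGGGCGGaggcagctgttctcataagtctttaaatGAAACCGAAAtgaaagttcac
Ctsc, chr7:88277835-88278084, plus strand: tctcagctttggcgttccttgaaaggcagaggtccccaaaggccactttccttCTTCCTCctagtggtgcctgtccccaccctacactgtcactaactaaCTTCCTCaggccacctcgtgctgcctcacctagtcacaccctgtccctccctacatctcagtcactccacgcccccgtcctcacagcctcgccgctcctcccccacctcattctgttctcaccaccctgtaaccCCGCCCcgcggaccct
Ctsz, chr2:174439040-174439289, minus strand: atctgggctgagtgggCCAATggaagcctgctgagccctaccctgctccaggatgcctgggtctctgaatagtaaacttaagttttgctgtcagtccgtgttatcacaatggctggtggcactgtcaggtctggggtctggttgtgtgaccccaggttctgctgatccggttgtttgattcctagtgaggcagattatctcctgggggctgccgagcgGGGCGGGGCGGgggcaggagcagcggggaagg
The Ctss window held 1 pair of GAAA spaced by 2 bases, beginning 21 bases before the start, and 2.98% of all 32851 promoters of this length hold that motif. It also held 1 GGGCGG, a motif present in 32.7% of promoters. The Ctsc window held GAGGAAG at 2 places on the opposite strand, a motif with at least 1 match in 10.6% of promoters, and 1 GGGCGG on the opposite strand. The Ctsz window held 2 overlapping GGGCGG matches and 1 CCAAT, which 33.8% of promoters hold. Its GC content was 58.8%, against 44.8% for Ctss, 60.4% for Ctsc and a median of 52.4% over all promoters. A match here describes letters and says nothing of binding.

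Each gene had its own pattern over the classes of cells, and both libraries showed nearly the same pattern. Ctsb, Ctss, Ctsc, Ctsh and Ctsz were highest in monocyte and macrophage-like cells among classes with at least 20 cells in each library. Ctsl and Cst6 were highest in tumour-like cells, Ctsw in T and NK cells, Ctsd in NK cells, and Cst3 in dendritic cells.

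**Figure D1:**
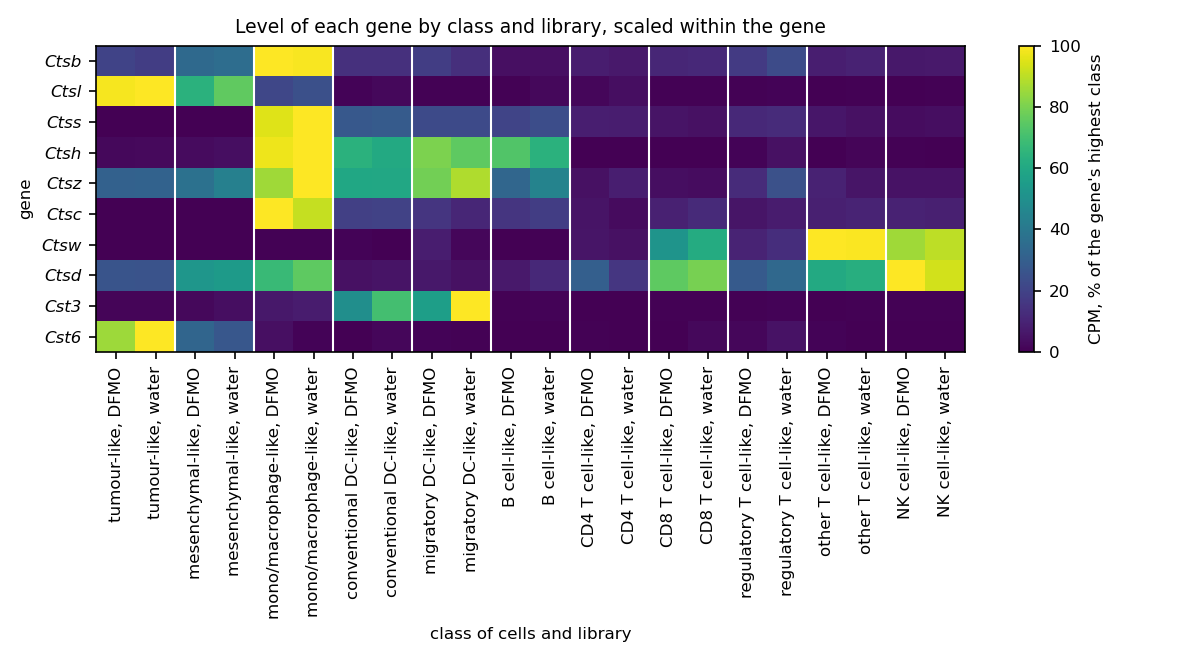
Heat map of the 10 genes (rows) in 11 classes of cells, each class shown for the DFMO and the water library (columns); colour is the CPM as a percent of the highest class of the same gene, so colours compare classes within a gene and not genes with each other. The 2 columns of a class look alike for most genes; Cst3 in the 2 dendritic cell classes is lower in DFMO than in water.

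Between the libraries, few of the 10 genes differed in tumour-like, mesenchymal-like or myeloid cells. More differed in lymphoid cells, beside a different mix of lymphocytes, and the part of this mix was not tested. A gene is counted here as past the limit when it has at least 30 UMIs in the class and the ratio of DFMO over water is beyond 1.5-fold. In tumour-like cells 0 of 10 genes were past it, where 7.71% of all 11800 genes with enough UMIs were. In mesenchymal-like cells 1 of 9 was past it, Cst3, which was lower in DFMO, where 13.9% of all genes were past it in either direction. In myeloid cells 2 of 10 were past it, Ctsw and Cst6, both higher in DFMO, where 14.9% of all genes were past it in either direction, and both counts rest on very few cells (below). In lymphoid cells 6 of 10 were past it, Ctsh, Ctss and Ctsz higher and Ctsw, Ctsd and Cst6 lower, where 32.3% of all genes were. The median log2 ratio over the 10 genes was 0.01 in tumour-like cells (0.05 over all genes), -0.24 in mesenchymal-like cells (9 genes, -0.01 over all), -0.15 in myeloid cells (0.08 over all) and -0.36 in lymphoid cells (0.12 over all).

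**Figure D2:**
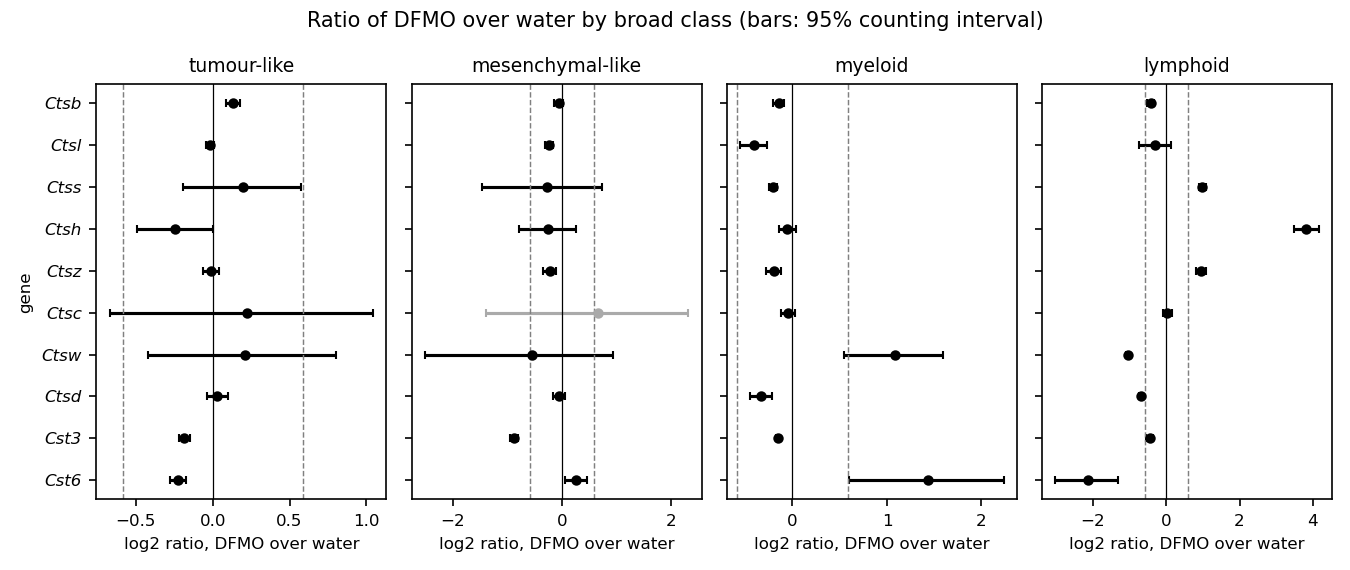
Log2 ratio of DFMO over water (x axis, a separate scale in each panel) for the 10 genes (y axis) in the 4 broad classes; points are values, bars 95% counting intervals, dashed lines the 1.5-fold limits, and grey the 1 gene with under 30 UMIs (Ctsc in mesenchymal-like cells). In tumour-like cells every point lies inside the limits, and in lymphoid cells Ctsh stands farthest from 0 at 3.81.

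Ctsb, the cysteine protease best known as cathepsin B, was highest in monocyte and macrophage-like cells. They held 2626 CPM of it in the DFMO library (interval 2531 to 2723) and 2598 CPM in the water library (2556 to 2640). Within that class it was concentrated in the cluster led by Mmp12, C1qa and Apoe, genes of mature macrophages, with 5253 CPM in DFMO and 4848 CPM in water. The cluster led by Hp, Lyz2 and Chil3, genes of monocytes, held 1369 and 1465 CPM. Mesenchymal-like cells followed with 902 CPM (DFMO) and 937 CPM (water), and tumour-like cells held 525 and 479 CPM. B cell-like cells were lowest in both libraries, with 109 CPM in DFMO and 104 CPM in water, the latter from 9 UMIs. The log2 ratio of DFMO over water was 0.13 (0.09 to 0.18) in tumour-like cells, -0.05 (-0.14 to 0.03) in mesenchymal-like cells and 0.02 (-0.04 to 0.07) for monocytes and macrophages. Over the 19 clusters with at least 20 cells in each library, Ctsb was higher in DFMO in 12 and lower in 7. The highest ratio was 0.59 (0.12 to 1.04), in the CD8 T cell-like cluster led by Gzmk. The 25 plasmacytoid dendritic cell-like cells of the water library had 3080 CPM of Ctsb; DFMO had 4 such cells, too few to compare.

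Ctsl, cathepsin L, was highest in tumour-like cells among classes with at least 20 cells in each library. The plasmacytoid dendritic cell-like cells stood above them, at 3080 CPM in the 25 water cells and 3321 CPM in the 4 DFMO cells. Tumour-like cells held 1663 CPM in DFMO (1638 to 1688) and 1685 CPM in water (1671 to 1699), and a log2 ratio of -0.02 (-0.04 to 0.01). They supplied 86.4% of all Ctsl UMIs of the DFMO library and 76.8% of those of the water library. Among tumour-like clusters the one led by Car9, Ndrg1 and Ero1l, genes induced by low oxygen, was highest, with 2088 CPM (DFMO) and 2024 CPM (water). The cluster led by Hmga1 and Ybx3 was lowest, with 1097 and 1100 CPM. Mesenchymal-like cells held 1078 CPM in DFMO and 1271 CPM in water (log2 ratio -0.24, -0.31 to -0.16). In lymphoid cells Ctsl was nearly absent, 10.6 and 13.1 CPM. Macrophages of the Mmp12 and C1qa cluster held 717 CPM in DFMO and 880 CPM in water (log2 ratio -0.29, -0.49 to -0.10). The monocyte cluster led by Hp went the other way, 240 against 108 CPM (log2 ratio 1.15), but 67 of its 94 DFMO UMIs came from 1 cell.

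Ctss, cathepsin S, stays active at neutral pH and cuts the invariant chain in antigen-presenting cells. It was a leukocyte gene here, with 3830 CPM in DFMO (3716 to 3948) and 4027 CPM in water (3975 to 4080) in monocyte and macrophage-like cells. Conventional dendritic cell-like cells followed with 1111 and 1158 CPM. B cell-like cells held 829 and 944 CPM, and migratory dendritic cell-like cells 905 and 910 CPM; the intervals of these 2 classes overlapped in both libraries. Tumour-like cells held 7.65 CPM (DFMO) and 6.68 CPM (water), and mesenchymal-like cells 5.72 and 6.93 CPM. For the classes with the highest levels the log2 ratio was -0.07 (-0.12 to -0.02) for monocytes and macrophages and -0.19 (-0.51 to 0.15) in B cell-like cells. CD8 T cell-like cells held 213 and 177 CPM (log2 ratio 0.27, 0.10 to 0.44). By CD8 cluster the ratio was -0.05 (led by Gzmf and Pdcd1), 0.54 (Dapl1 and Lef1), 0.14 (Gzmk) and 0.22 (dividing). Each of these intervals held 0. The Dapl1 and Lef1 cluster had 455 cells in DFMO and 49 in water, and the part of this mix in the CD8 ratio was not tested.

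Ctsc, cathepsin C or dipeptidyl peptidase I, activates granzymes and other granule proteases. Like Ctss it was high in monocytes and macrophages and near 0 in tumour-like cells: 1443 CPM in DFMO (1373 to 1516) and 1316 CPM in water (1286 to 1346) in the former, and only 1.67 and 1.43 CPM in tumour-like cells. In the Mmp12 and C1qa macrophages it was 1782 CPM in DFMO against 1402 in water (log2 ratio 0.35, 0.22 to 0.47). In cytotoxic cells, where its granzyme substrates are made, NK cell-like cells held 136 CPM (DFMO) and 127 CPM (water), and CD8 T cell-like cells 133 and 170 CPM (log2 ratio -0.35, -0.55 to -0.16). By CD8 cluster the ratio was -0.15 (led by Gzmf and Pdcd1), -0.55 (Dapl1 and Lef1), 0.86 (Gzmk) and -0.44 (dividing). Only the interval of the dividing cluster left out 0 (-0.83 to -0.07). The Gzmk value (-0.03 to 1.74) rested on 21 UMIs in DFMO and 27 in water. The Dapl1 and Lef1 cluster, at 83.3 and 122 CPM, had 455 cells in DFMO and 49 in water. The part of this mix in the CD8 ratio was not tested. B cell-like cells held 225 and 265 CPM, with intervals that overlap those of conventional dendritic cell-like cells (272 and 286 CPM) in both libraries.

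Ctsh, cathepsin H, an aminopeptidase, divided the lymphocytes. B cell-like cells held 564 CPM in DFMO (536 to 592) and 495 CPM in water (358 to 667, from 43 UMIs), a log2 ratio of 0.19 (-0.25 to 0.66). CD8 T cell-like cells had only 5 UMIs of it in DFMO and 3 in water, and NK cell-like cells 5 and 2. By cells, 62.2% of B cell-like cells in DFMO had a Ctsh UMI and 52.6% in water, against 0.364% and 0.365% of CD8 T cell-like cells, which were deeper (median 2564.5 and 2791 UMIs against 1765.5 and 1314). At 1000 UMIs per cell, with shallower cells left out, the shares in B cell-like cells were 42.5% and 45.8%. Monocyte and macrophage-like cells held 754 CPM (DFMO) and 775 CPM (water), migratory dendritic cell-like cells 621 and 582 CPM, and conventional ones 496 and 469 CPM. The 3 myeloid ratios were -0.04, 0.09 and 0.08 on the log2 scale, each with an interval that holds 0.

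Ctsz, cathepsin Z (also called X), a carboxypeptidase, was measured in every class. Monocyte and macrophage-like cells held 1019 CPM in DFMO and 1186 CPM in water (log2 ratio -0.22, -0.31 to -0.13), and migratory dendritic cell-like cells 936 and 1046 CPM. Mesenchymal-like cells held 442 and 515 CPM, B cell-like cells 391.8 and 530 CPM, and tumour-like cells 368 and 371 CPM. CD8 T cell-like cells were lowest, with 45.6 and 41.4 CPM. Of the 19 clusters, Ctsz was lower in DFMO in 14 and higher in 5. The largest gap with at least 100 UMIs in each library was in regulatory T cell-like cells, 146 CPM in DFMO and 296 CPM in water (log2 ratio -1.02, -1.35 to -0.69). Markers of monocytes and macrophages (245 and 705 CPM) and of type 2 conventional dendritic cells (2.44 and 91.1 CPM) were also lower there in DFMO, and their part in the result was not tested.

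Ctsw, or lymphopain, a cysteine protease of cytotoxic lymphocytes, belonged to T and NK cells: lymphoid cells held 98.4% of its UMIs in DFMO and 96.6% in water. NK cell-like cells held 1533 CPM in DFMO (1463 to 1606) and 1610 CPM in water (1554 to 1667), with a log2 ratio of -0.07 (-0.16 to 0.01). The other T cell-like cluster, led by Klra1, Cd7 and Cd160, held 1789 and 1781 CPM. CD8 T cell-like cells held 926 and 1102 CPM, a log2 ratio of -0.25 (-0.32 to -0.18). Within CD8 T cells the cluster led by Gzmf, Pdcd1 and Lag3 was level between the libraries (1166 and 1205 CPM), while the CD8 cluster whose leading genes included Dapl1 and Lef1, genes of naive T cells, held 812 CPM in DFMO and 1207 CPM in water (log2 ratio -0.57, -0.87 to -0.26). That cluster had 455 cells in DFMO and only 49 in water. By cells, 98.1% (DFMO) and 97.8% (water) of NK cell-like cells had a Ctsw UMI, against 0.335% and 1.75% of B cell-like cells; median depths were 4382 and 4385.5 UMIs against 1765.5 and 1314. At 1000 UMIs per cell the NK shares were 79.1% and 83.7%. In myeloid cells Ctsw was 26.7 CPM in DFMO and 12.6 CPM in water (log2 ratio 1.08), but 32 of the 47 DFMO UMIs lay in 4 migratory dendritic cell-like cells, 14 of them in 1 cell. NK cell markers in the myeloid class moved the same way, 18.7 and 8.37 CPM for 4 of 6 and 6 of 6 genes seen, and their part in the result was not tested. With cells thinned to 1000 UMIs the myeloid ratio was -0.50. In monocyte and macrophage-like cells alone, the largest myeloid class, Ctsw was lower in DFMO, 8.16 against 12.4 CPM (log2 ratio -0.61, -1.80 to 0.40). This rested on 9 DFMO UMIs, and its clusters differed. The cluster led by Ly6i, Tgfbi and Il1b held 24.1 CPM in DFMO and 11.2 CPM in water. The Mmp12 and C1qa macrophages held 0 and 23.9 CPM.

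Ctsd, cathepsin D, the aspartic protease and a main proteolytic enzyme of lysosomes, was spread over lymphoid, myeloid and mesenchymal-like cells. NK cell-like cells were highest, with 895 CPM in DFMO (841 to 951) and 832 CPM in water (792 to 874). CD8 T cell-like cells held 674 and 712 CPM and monocyte and macrophage-like cells 607 and 674 CPM. The Mmp12 and C1qa macrophages alone held 1393 CPM (DFMO) and 1433 CPM (water), against 168 and 233 CPM in the Hp and Chil3 monocytes. Among CD8 T cells the Gzmf and Pdcd1 cluster held 1110 and 924 CPM (log2 ratio 0.26, 0.15 to 0.38) and the Dapl1 and Lef1 cluster 380 and 366 CPM. Mesenchymal-like cells held 468 and 486 CPM and tumour-like cells 233 and 228 CPM, with log2 ratios of -0.05 (-0.17 to 0.06) and 0.03 (-0.04 to 0.10). Dendritic cells were low in Ctsd, at 38.9 and 45.8 CPM for the conventional and 56.8 and 40.4 CPM for the migratory class. B cell-like cells were low as well, with 59.5 CPM in DFMO and 104 CPM in water. Their log2 ratio was -0.80 (-1.76 to 0.35), with only 9 UMIs in water.

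The ratios of the whole lymphoid class changed when B cell-like cells were left out or its clusters were weighted alike. Leaving out B cell-like cells does not even out the rest of the mix: CD4 T cell-like cells were 628 in DFMO and 38 in water. B cell-like cells were 43.8% of lymphoid cells in DFMO (1492 of 3406) and 3.62% in water (57 of 1574), and CD4 T cell-like cells 18.4% and 2.41%. Over all lymphoid cells Ctsh stood at 176 CPM in the DFMO library and 12.6 CPM in the water library, a log2 ratio of 3.81 (3.48 to 4.16). Its ratio was -0.98 once B cell-like cells were left out and 0.07 with each cluster weighted alike. The value of -0.98 rests on few UMIs, with 6 in DFMO and 26 in water from regulatory T cell-like cells. Ctss went from 0.99 to 0.29 without B cell-like cells and to 0.03 with clusters weighted alike. Ctsz went from 0.95 to -0.30 and -0.40. The cytotoxic cell gene Ctsw went from -1.04 to -0.52 and -0.18, and Ctsd from -0.69 to -0.23 and 0.10. Both ways of weighting were added after the values were seen. Cst6 stayed past 1.5-fold in all 12 alternatives run, but rested on 17 UMIs in DFMO and 50 in water.

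**Figure D3:**
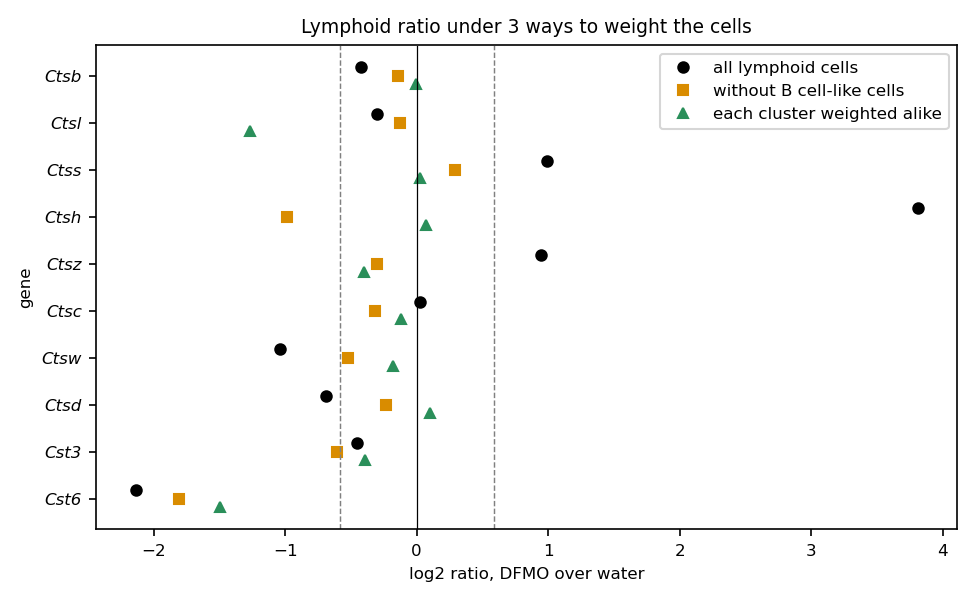
Log2 ratio of DFMO over water in lymphoid cells (x axis) for the 10 genes (y axis), with all lymphoid cells (circles), without B cell-like cells (squares) and with each cluster weighted alike (triangles); dashed lines are the 1.5-fold limits. Ctss, Ctsz, Ctsw and Ctsd are beyond a limit with all cells and inside both limits with either other weighting, while Cst6 is beyond the limit in all 3.

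Cst3, cystatin C, a secreted inhibitor of cysteine cathepsins, was highest in dendritic cells. It made up 3.70% of all UMIs of conventional dendritic cell-like cells in water and 2.60% in DFMO, and 5.28% and 2.95% of those of migratory dendritic cell-like cells, the latter led by Ccl22, Il12b and Ccr7. In CPM these were 36965 (water, 36667 to 37265) against 25966 (DFMO, 25476 to 26464) for the conventional class, a log2 ratio of -0.51 (-0.54 to -0.48). For the migratory class they were 52751 (52060 to 53450) against 29484 (28785 to 30196), a log2 ratio of -0.84 (-0.88 to -0.80). The middle of the migratory cells also shifted: per cell the median was 41389 CPM in water (quartiles 28196 and 54704) and 23905 CPM in DFMO (quartiles 7623 and 43186), so the ranges overlapped. The class had 34 cells in DFMO and 76 in water. Scaling by edgeR's trimmed mean of M values moved all ratios of this class by -0.30, which put Cst3 at -1.14. At a finer resolution the cells led by Xcr1 and Clec9a, markers of type 1 conventional dendritic cells, held 31409 CPM in DFMO and 41517 CPM in water (log2 ratio -0.40). A subcluster that joined cells with Cd209a to cells with the plasmacytoid gene Siglech (22 cells in DFMO and 76 in water) went the other way, with Cst3 at 5911 CPM in DFMO against 4526 CPM in water (log2 ratio 0.39, 0.26 to 0.51).

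Outside dendritic cells Cst3 was lower in DFMO as well, to a varying degree. Mesenchymal-like cells held 1085 CPM in DFMO (1034 to 1137) and 1979 CPM in water (1950 to 2007), a log2 ratio of -0.87 (-0.94 to -0.80). Genes that lead this cluster were lower in the same cells too: Mfap4 was at 27.3 and 135 CPM in the DFMO and water libraries, Postn at 139 and 289 CPM and Col1a1 at 194 and 346 CPM, while the 12 mesenchymal markers summed to 14739 and 15747 CPM. At a finer resolution a subcluster led by Mfap4 and Postn held 67 DFMO and 666 water cells, with a Cst3 ratio of -0.83. Another, led by Gm26917 and Cxcl1, held 63 and 256 cells (-0.52). The class has 100 DFMO and 814 water cells, so these subclusters together also hold cells from outside it. They do not give the make-up of the class, and the part of its make-up in the result was not tested. Monocyte and macrophage-like cells held 3451 and 4112 CPM (log2 ratio -0.25, -0.30 to -0.20). In the monocyte and macrophage clusters the ratio was -0.46 in the one led by Ly6i, Tgfbi and Il1b, -0.34 in the Mmp12 and C1qa macrophages and -0.08 in the Hp and Chil3 monocytes. Tumour-like cells held 720 and 818 CPM (log2 ratio -0.18, -0.22 to -0.15), with -0.37 in the Car9 cluster, -0.30 in the dividing cluster led by Cenpf and Top2a, -0.21 in the Hmga1 cluster and 0.10 (0.03 to 0.17) in the cluster led by Nppb and Ccnd1. Among lymphocytes the gap was widest in regulatory T cell-like cells, 219 CPM in DFMO and 568 CPM in water (log2 ratio -1.37, -1.63 to -1.12), followed by NK cell-like cells with 225 and 332 CPM (-0.56, -0.77 to -0.35). CD8 T cells of the Gzmf and Pdcd1 cluster were level, 415 and 405 CPM, as were the CD4 T cell-like cells (143 and 141 CPM). The CD8 cluster of Dapl1 and Lef1 was level too, 172 and 171 CPM, the latter from 14 UMIs. Over the 19 clusters Cst3 was lower in DFMO in 15, with the interval below 0 in 10, and higher in 4, with the interval above 0 in 1. No other gene of the 10 had more than 6 clusters with an interval below 0, but these counts are not on equal terms. Some genes had enough UMIs in fewer clusters, such as Cst6 in 5 and Ctsl in 10. Cst3 also had the most UMIs of the 10 genes, 33443 in DFMO and 155659 in water, and more UMIs give narrower intervals.

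Alternatives were run in 12 classes, and in all 12 Cst3 was lower in DFMO under each of them. The 12 overlap, because the broad myeloid and lymphoid classes contain others of them. CD4 T cell-like cells, level in Cst3 at 143 CPM (DFMO) and 141 CPM (water), were not among the 12. In 3 of the 12, mesenchymal-like, regulatory T cell-like and migratory dendritic cell-like, Cst3 was past 1.5-fold under each. The share of all genes past 1.5-fold and lower in DFMO was 8.10% in the first, 8.61% in the second and 9.79% in the third. In the whole myeloid class the ratio was only -0.16, beside a different mix of its cells: conventional dendritic cell-like cells held 23.3% of myeloid UMIs in DFMO and 20.5% in water, and migratory ones 13.0% and 5.42%. With each cluster weighted alike it was -0.64. Over all kept cells Cst3 was 1430 CPM in DFMO and 2667 CPM in water, a log2 ratio of -0.90, beside a different mix of classes. Myeloid cells held 7.54% of all UMIs in DFMO and 13.3% in water, and mesenchymal-like cells 6.73% and 16.1%. The part of this mix in the library's value was not tested. The part of free RNA in the lymphocyte ratios was not tested. In regulatory T cell-like cells, markers of other cells moved with Cst3: the 13 monocyte and macrophage markers summed to 245 CPM in DFMO (8 seen) and 705 CPM in water (11 seen), the 6 type 2 conventional dendritic cell markers to 2.44 CPM (2 seen) and 91.1 CPM (5 seen), and the class II gene H2-Eb1 was at 81.6 and 344 CPM. Their part in the result was not tested.

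**Figure D4:**
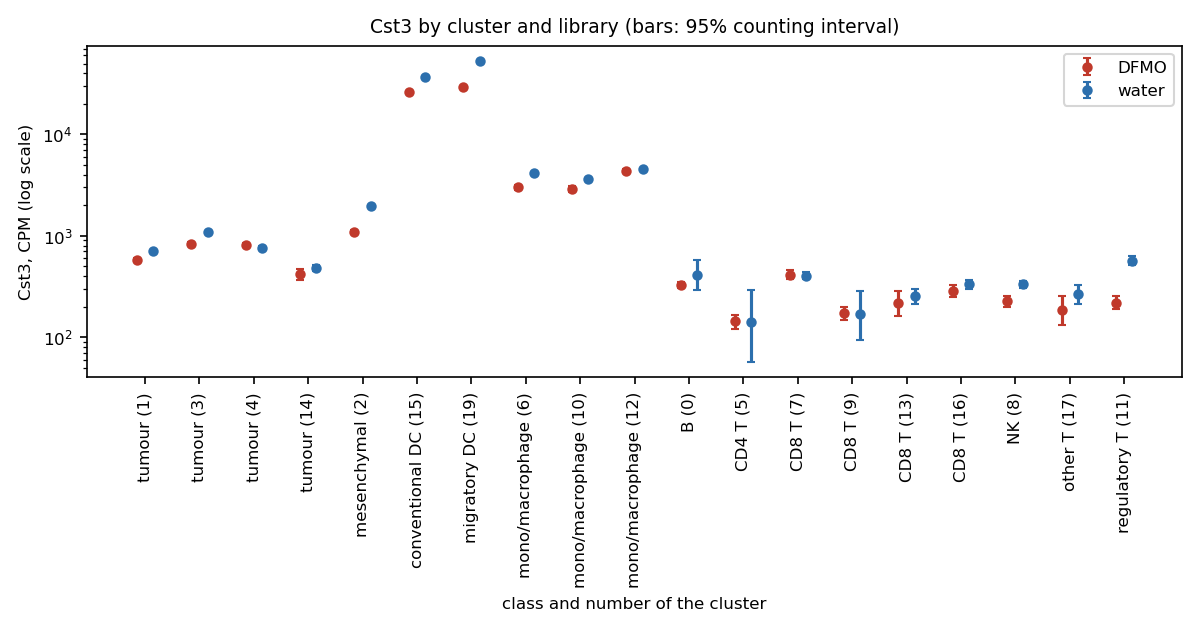
Level of Cst3 in CPM (y axis, log scale) in the 19 clusters with at least 20 cells in each library (x axis: class, with the cluster's number), in DFMO (red) and water (blue); bars are 95% counting intervals, often smaller than the point. The dendritic cell clusters lie highest, with water above DFMO. The points coincide in CD8 T cell clusters 7 and 9 and in CD4 T cell cluster 5.

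Cst6, cystatin E/M, an inhibitor of legumain and of cathepsin L, was a gene of the tumour-like cells. They held 390 CPM in DFMO (378 to 402) and 456 CPM in water (448 to 463), a log2 ratio of -0.23 (-0.28 to -0.17), and 91.0% and 90.1% of all Cst6 UMIs. By cells, 69.1% of tumour-like cells in DFMO and 72.7% in water had a Cst6 UMI, against 0.067% and 0 of 57 (interval up to 6.27% of cells with a UMI) of B cell-like cells, which should lack it but were shallower (median 1765.5 and 1314 UMIs against 18307 and 16320.5). At 1000 UMIs per cell the tumour-like shares were 22.9% and 25.9%. The clusters differed: the dividing cluster held 338 CPM in DFMO and 473 CPM in water (log2 ratio -0.48, -0.57 to -0.39), the Nppb cluster 388 and 472 CPM (-0.28), and the Car9 cluster 449 and 417 CPM (0.11, 0.02 to 0.19). Mesenchymal-like cells held 148 and 123 CPM (log2 ratio 0.26, 0.05 to 0.47). The myeloid ratio of 1.43 rested on 22 UMIs in DFMO, of which 21 came from 1 cell; without the cell with the most UMIs in each library it was -2.81. Lymphoid cells held 1.85 CPM of Cst6 in DFMO and 8.16 CPM in water. The share of tumour-like cells, its main source, was also lower in the DFMO library, and free RNA from them was not tested.

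Among the pathway's other genes, 78 of 106 listed were in the matrix: other cathepsins and cystatins, sorting and activation factors, lysosomal membrane proteins and hydrolases, their regulators, class II antigen processing and granule proteases. In tumour-like cells 8 of the 64 with at least 30 UMIs were past 1.5-fold higher in DFMO and 0 lower, where 4.79% and 2.92% of all genes were. Of these 8, 4 were class II genes, such as H2-Eb1 (38.0 and 15.3 CPM) and H2-Aa (51.9 and 21.4 CPM), and B cell markers in the same cells summed to 21.1 and 1.43 CPM; their part in the result was not tested. In mesenchymal-like cells 4 of 59 were higher, all class II genes, and 4 lower, including Mitf, a regulator of lysosomal genes (8.26 and 13.5 CPM), where 5.82% and 8.10% of all genes were. In myeloid cells 6 of 70 were higher and 1 lower, where 9.06% and 5.86% of all genes were. The higher ones included Cst7, an intracellular cystatin (24.97 and 12.2 CPM, log2 ratio 1.03), and Serpinb6b, a serpin (190 and 97.9 CPM, 0.96). In monocyte and macrophage-like cells Cst7 was level (9.98 and 9.96 CPM) and 0 of 3 measured genes of the cystatin list and 0 of 3 of the granule list were past the limit, where 7.51% of all genes were higher. The larger share of migratory dendritic cell-like cells and the NK cell markers given above moved with the myeloid values, and their part was not tested. Lgmn, the legumain that processes cathepsins, was at 516 and 744 CPM (log2 ratio -0.53, inside the limit), and Grn, the progranulin gene, at 775 and 990 CPM (-0.35). In lymphoid cells 20 of 67 were higher and 13 lower, where 20.3% and 12.0% of all genes were. All 7 measured class II genes were higher and all 7 granule genes lower, among them Gzmb (1258 and 3114 CPM), beside the different mix of lymphocytes. Within B cell-like cells 0 of 7 class II genes were past the limit (30.6% of all genes were higher), and in regulatory T cell-like cells 5 of 6 were lower. Granule genes past the limit and lower were 1 of 7 in CD8 T cell-like cells (6.06% of all genes), 0 of 7 in NK cell-like cells (5.53%) and 6 of 6 in regulatory T cell-like cells (8.61%). Serpinb9, a serpin, stood by mistake in the cystatin list as well as in the granule list.

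Over 8 classes with at least 50 cells in each library (16 points), the genes whose log2(CPM + 10) was most like that of each gene were found by Pearson's r, given as a description. The points share 2 libraries and their depth. No dendritic cell class was among the 8, so the likeness of Cst3 leaves out the classes where it was highest. Ctsw was most like Nkg7, a granule membrane protein of cytotoxic cells (r = 0.99), then Sytl3 and Fasl (both 0.98). Cst6 was most like Trib3 and Asns (both 0.98), genes of the amino acid stress response, and Bcar1 (0.98). Ctsl was most like Atp6v1g1, a subunit of the proton pump of lysosomes, Nupr1 and Eps8 (all 0.99). Ctss was most like Mcl1 (0.98), then Necap2 and Ctsc (both 0.96). Ctsc was most like Pitpna (0.97), Gngt2 and Gch1 (both 0.96). Cst3 was most like Ch25h, Grn and Lamp2 (all 0.96), the last of them a lysosomal membrane protein, and Ctsh was high in likeness to BC028528 (0.97) and Gm15987 (0.96). Ctsb was most like the lysosomal acid phosphatase gene Acp2, Mcub (both 0.94) and Coro1b (0.93), Ctsz like Marcks, P2rx4 (both 0.93) and Ifngr2 (0.92), and Ctsd like Tbc1d2b (0.91), Zyx (0.90) and Tagln2 (0.89). Among the 10 genes themselves the most alike pairs were Ctss with Ctsc (0.96), Ctsb with Cst3 (0.88) and Ctsl with Cst6 (0.86). In migratory dendritic cell-like cells, outside the 8 classes, Cst3 was at 29484 CPM (DFMO) and 52751 CPM (water). Ctsb was at 477 and 352 CPM there.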

How the data were processed

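Raw UMI counts per cell and gene were deposited by the authors as 1 matrix for both libraries (10720 cells, 17775 genes), made with Cell Ranger 3.02, Scanpy 1.4.4 and mm10 per the submitters' processing notes. The sources used here do not say which limits were set on cells, and the matrix holds 0 mitochondrially encoded genes. The cell table's Control label was taken as the water library. A minimum of 200 genes per cell removed 1 cell, and Scrublet (scanpy 1.11.5, run per library) removed 51 DFMO cells (1.14%) and 97 water cells (1.55%). Only 26.7% and 35.0% of simulated doublets lay above its thresholds, so doublets may remain. The 10571 remaining cells were scaled to 10000 counts, log transformed and clustered (2000 variable genes without receptor segments, 30 components, 15 neighbours, leidenalg 0.10.2 at resolution 1.0) into 23 clusters. A name needed 3 markers of a list, each in 0.1 of the cluster's cells or more and at 2 times its level outside, and 1 marker among the 10 leading genes. Nameless clusters with Ptprc under 20 CPM were called tumour-like; this was settled after the clusters were seen, so class values depend on rebuilt names.

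UMIs were summed per class and library, and ratios, intervals and the 1.5-fold limit were computed with numpy 2.4.6 and scipy 1.17.1 and checked on simulated counts. All 10 genes may be named in each class, and of the pathway lists those past 1.5-fold and the 3 highest and 3 lowest ratios with at least 100 UMIs. The genes and lists were chosen with earlier results of these data known. Likeness used a pseudocount of 10 CPM. A gene among the likeness results is not reported here. Alternatives were doublets kept, 500 genes per cell, Leiden resolution 0.5 and 2.0, trimmed mean of M values scaling (edgeR 4.0.16, no test), totals without receptor segments, each cell weighted alike, and cells thinned to 1000 UMIs. Those chosen after the values were seen were each cluster weighted alike, no B cell-like cells, no cell with the most UMIs of each library, and no shared barcodes.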

Additional observations from a re-analysis of the deposited data

Results flagged for a closer look

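Ctsw and Cst6 went opposite ways in the 2 leukocyte classes; the difference was not tested. The log2 ratio of DFMO over water for Ctsw was 1.08 in myeloid cells and -1.04 in lymphoid cells. In monocyte and macrophage-like cells alone it was -0.61 (-1.80 to 0.40), from 9 DFMO UMIs. For Cst6 it was 1.43 in myeloid cells and -2.14 in lymphoid cells. The myeloid value of each rests on a few cells of the DFMO library: 14 of 47 UMIs of Ctsw and 21 of 22 UMIs of Cst6 came from 1 cell each.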

How the results depend on the processing

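No paired analysis was possible because the design has 1 library per group. Over the alternatives that gave a finite ratio, 52 of 103 ratios kept their direction in every one. So did 13 of the 20 past 1.5-fold, of which 10 stayed past it in every one. Alternatives without a finite ratio were not counted. The 13 and the 10 thus include Cst6 in monocyte and macrophage-like cells, which lost all its DFMO UMIs without the top cell. The median log2 ratio over the genes moved in mesenchymal-like cells to -0.36 when the genes' UMIs were summed. In myeloid cells it moved to -0.26 with edgeR's scaling, -0.0583 with each cell and -0.00584 with each cluster weighted alike, -0.0683 in thinned cells and -0.22 without the top cell of each library. In lymphoid cells it moved to -0.54 with doublets kept. Of the 20 ratios past 1.5-fold, 7 changed sign under some alternative; in thinned cells these were Ctsw in myeloid cells (-0.50), Ctsw in monocyte and macrophage-like cells (0.25) and Ctsl in conventional dendritic cell-like cells (0.19, and 0.0143 with each cell weighted alike). Cst6 in myeloid cells was -2.81 without the top cells, and in monocyte and macrophage-like cells no UMI was left in DFMO. Without B cell-like cells, Ctsh (-0.98) and Ctsz (-0.30) changed sign in lymphoid cells, as did Ctsz (-0.40) and Ctsd (0.10) with each cluster weighted alike. The cause of these and of the other sign changes was not tested. Trimmed mean scaling moved all ratios by -0.11 in myeloid, -0.12 in regulatory T cell-like, -0.12 in conventional and -0.30 in migratory dendritic cell-like cells. Depth limits small classes: water had 57 B cell-like and 38 CD4 T cell-like cells, and counts under 30 UMIs support no ratio.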
